A study of Mus musculus with 1536 samples.

Results

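The genes of adrenomedullin, endothelin and serotonin signalling described here are *Adm*, *Calcrl*, *Ramp1*, *Ramp2*, *Ramp3*, *Edn1*, *Ednrb* and *Htr2b*. They were taken by symbol, and all 8 were among the 23168 genes of the adult expression matrix. Lymphatic endothelial cells (LECs) came from the nasopharyngeal mucosa of 30 c57bl/6 mice of both sexes, aged 10–12 weeks, whose tissue was pooled before the sort. Cells positive for CD31 and PDPN were sorted, and their RNA was read with the Smart-seq3 protocol, in which the full-length cDNA of each cell has its own well. Each gene was described over all of these cells and by the level of *Gja4*, which encodes the gap junction protein connexin 37 of lymphatic valves: in 240 cells (28.5% of all) the deposited *Gja4* value was above 1, and the other 71.5% are called the rest. The mice were untreated as far as the labels state, and neither mouse nor plate is named for a cell. All cells were therefore treated as 1 sample, no test across cells was made, and standard deviations (SD) over cells describe these cells only. Shares are followed by exact 95% intervals (Clopper–Pearson), which cover counting error and nothing else.

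Adrenomedullin is a small secreted peptide that acts on the receptor protein encoded by *Calcrl*, and this receptor works only together with one of the receptor activity modifying proteins encoded by *Ramp1*, *Ramp2* and *Ramp3*. With RAMP2 or RAMP3 the receptor prefers adrenomedullin and with RAMP1 it prefers calcitonin gene-related peptide (CGRP), and mice that lack *Adm*, *Calcrl* or *Ramp2* fail to form a normal lymphatic system before birth. Endothelin-1, the product of *Edn1*, is a constrictor peptide of blood and lymphatic vessels, and endothelial cells carry mainly its type B receptor, *Ednrb*, which also clears the peptide. *Htr2b* encodes a serotonin receptor that couples to the G proteins of the Gq family, as the endothelin receptors do.

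The depth of a cell ran from 7433 to 3524358 reads (median 350746). Of 8 endothelial and lymphatic markers, *Mmrn1* was found in 100%, *Prox1* in 97.7%, *Pdpn* in 95.25% and the least frequent, *Ccl21a*, in 79.2% of cells. Of 5 immune markers, *Ptprc* and *Cd3e* were found in 0 cells (upper bound of the exact interval 0.437%), while *Cd79a*, *Lyz2* and *Cd68* were found in 2.85%, 7.96% and 15.7%. Of 5 genes listed for blood endothelium, *Flt1* was found in 2.49% and *Emcn* in 94.2%, and 5 fibroblast genes were found in at most 12.35% of cells each. Each value is a natural logarithm, taken after 1 was added to the reads per 10000. A gene was called found in a cell with at least 1 read. Since this share rises with depth, shares are also given after each cell was thinned to 20000 reads, which left out 51 shallower cells.

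The 250 bases before the RefSeq start of 4 genes (build GRCm38.p6) are given here for the 2 ligands and for the 2 receptors whose level changed most between classes of cells. None of these windows holds an annotated exon base of its own gene. The window of *Ednrb* nevertheless lies inside the gene span used here for coordinates (103814625 to 103844402), downstream of the start of that gene model. Each is written 5′ to 3′ on the strand of the gene, and capitals mark a match to a searched motif.
Adm (chr7:110627407-110627656, plus strand): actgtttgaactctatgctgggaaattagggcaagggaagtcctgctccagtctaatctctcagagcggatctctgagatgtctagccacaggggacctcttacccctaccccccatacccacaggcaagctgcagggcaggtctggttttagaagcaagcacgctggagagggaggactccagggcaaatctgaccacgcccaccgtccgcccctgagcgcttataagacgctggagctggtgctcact
Edn1 (chr13:42301226-42301475, plus strand): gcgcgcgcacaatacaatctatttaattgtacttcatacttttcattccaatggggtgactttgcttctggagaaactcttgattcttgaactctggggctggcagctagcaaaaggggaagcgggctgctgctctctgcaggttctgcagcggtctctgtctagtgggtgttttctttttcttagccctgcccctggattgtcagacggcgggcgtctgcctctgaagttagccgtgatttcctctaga
Ednrb (chr14:103843702-103843951, minus strand): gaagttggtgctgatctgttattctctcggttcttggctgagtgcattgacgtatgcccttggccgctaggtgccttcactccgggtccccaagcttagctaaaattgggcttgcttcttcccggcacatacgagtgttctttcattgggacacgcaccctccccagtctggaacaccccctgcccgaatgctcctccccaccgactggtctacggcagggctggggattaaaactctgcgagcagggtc
Htr2b (chr1:86111981-86112230, minus strand): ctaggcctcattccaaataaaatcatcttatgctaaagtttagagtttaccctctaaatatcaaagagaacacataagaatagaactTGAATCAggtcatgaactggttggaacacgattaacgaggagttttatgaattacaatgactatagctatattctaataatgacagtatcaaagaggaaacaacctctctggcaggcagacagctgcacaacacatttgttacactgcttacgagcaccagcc
The letters searched, on both strands, were ACGTG, a core site of hypoxia-inducible factor, and the AP-1 site TGANTCA, in which N is any base. The other two were the GATA site AGATAA, whose factors act in lymphatic valves, and the forkhead site TAAACA. Of 32851 promoter windows of the same length, 16.6%, 6.75%, 9.99% and 12.03% held them, in the order given. Among the 7 genes with an entry, the only match was 1 AP-1 motif, TGAATCA, at positions -163 to -157 counted from the start of *Htr2b*. A match describes letters and is no evidence of binding, and *Ramp2* had no entry.

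Over all cells, the 8 genes fell into 3 that most cells expressed, 2 that a part of the cells expressed and 3 that few cells expressed. *Ramp2* was found in 94.2% of cells (interval 92.4% to 95.7%), *Calcrl* in 87.65% (85.2% to 89.8%) and *Ednrb* in 73.3% (70.15% to 76.2%). *Adm* was found in 46.2% (42.8% to 49.6%) and *Htr2b* in 32.1% (28.9% to 35.3%). *Edn1* had reads in 60 cells (7.13%, 5.48% to 9.08%), *Ramp3* in 28 (3.325%, 2.22% to 4.77%) and *Ramp1* in 5 (0.594%, 0.193% to 1.38%). The intervals of neighbours in this order did not overlap. In thinned cells the order was the same, with *Ramp2* in 88.6%, *Calcrl* in 73.2%, *Ednrb* in 59.4%, *Adm* in 32.7%, *Htr2b* in 20.7%, *Edn1* in 5.06%, *Ramp3* in 2.402% and *Ramp1* in 0.253%.

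**Figure D1:**
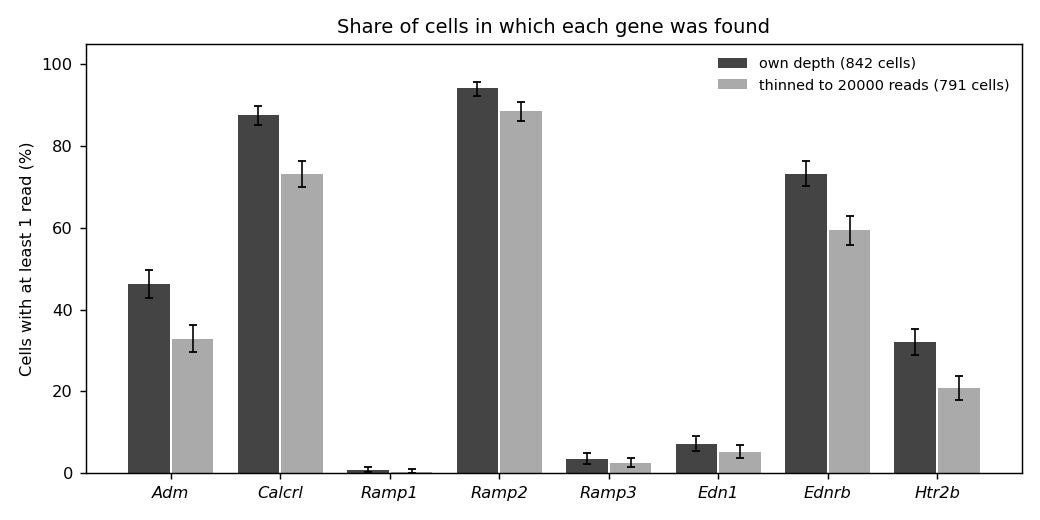
Share of adult LECs (%) with at least 1 read of each gene, at the depth of each cell (dark bars) and after thinning to 20000 reads (light bars), with 95% exact intervals. *Ramp2* and *Calcrl* were found in 94.2% and 87.65% of cells at their own depth, and *Ramp1* in 0.594%.

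Levels between genes were compared per kilobase of annotated exon. *Ramp2* had the highest level, 2.09 ± 1.90 reads per 10000 per kb (mean ± SD over all cells), followed by *Adm* at 1.09 ± 2.95, *Ednrb* at 0.584 ± 1.02, *Htr2b* at 0.348 ± 1.02 and *Calcrl* at 0.338 ± 0.3495. *Edn1*, *Ramp3* and *Ramp1* followed at 0.0560 ± 0.562, 0.0388 ± 0.319 and 0.00177 ± 0.0364. The order by level differed from the order by share of cells: *Adm*, found in fewer cells than *Calcrl*, had a higher level per kb. Undivided by exon length, the mean levels of *Adm*, *Calcrl* and *Htr2b* were 1.77, 1.65 and 0.7425 reads per 10000. The place of *Htr2b* above *Calcrl* thus comes from the division, and whether counts scale with exon length was not tested. Every neighbouring pair in the order per kb lies within the SD over cells. The gene model of *Ramp2* (GRCm38 chromosome 11, 101246028 to 101259546, plus strand) shares 33.4% of its exon bases with *Vps25* on the same strand, and *Vps25* was found in 5.70% of cells. With all of its reads divided by the 2.198 kb not shared, the level of *Ramp2* was 3.14 ± 2.86 reads per 10000 per kb. This assumes that no counted read came from the shared bases.

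The ligand *Adm* (chromosome 7, 110627661 to 110629820, plus strand) was uneven between cells. Its natural log value ran from 0 through a median of 0 to 4.21, and the highest level was 66.2 reads per 10000. The 84 highest cells held 71.3% of its summed level, against 33.1% for *Calcrl*, 30.3% for *Ramp2*, 50.4% for *Ednrb* and 81.5% for *Htr2b*. A small part of the cells thus carried most of the *Adm* and *Htr2b* reads, whereas *Calcrl* and *Ramp2* were spread over most cells.

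*Edn1* (chromosome 13, 42301476 to 42307990, plus strand), the other ligand, had 5898 reads in its 60 cells, with a lowest, median and highest count of 1, 14.5 and 1691 reads in a cell. Only 15 cells had a natural log value above 1, and the highest was 3.45. Cells with *Edn1* had a median depth of 420388 reads against 347858 in the others. In 4 groups of cells of rising depth *Edn1* was found in 3.79%, 9.52%, 6.67% and 8.53%. The part of depth in this share was not tested further. Of the cells with *Edn1*, 59 of 60 also had reads of *Prox1*, the transcription factor that sets lymphatic identity.

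The receptor *Calcrl* (chromosome 2, 84330626 to 84425411, minus strand) had a mean level of 1.65 ± 1.71 reads per 10000. Its median natural log value was 0.808 and its highest 2.67. *Ramp2*, which takes the receptor to the cell surface, had a median of 1.89 and reached 3.76. *Ramp2* was found in 94.85% of the cells with *Calcrl* (interval 93% to 96.3%) and in 89.4% of the cells without it (81.9% to 94.6%). These intervals overlap, so *Ramp2* was frequent in cells with and without reads of the receptor.

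The other partners were rare. *Ramp3* (chromosome 11, 6658521 to 6677475, plus strand) was found in 27 of the *Calcrl* cells (3.66%) and *Ramp1* (chromosome 1, 91179822 to 91225196, plus strand) in 4 (0.542%). In 0 of the *Calcrl* cells was *Ramp1* or *Ramp3* found without *Ramp2* (upper bound of the exact interval 0.499%). *Ramp2* was found in 94.85% of all *Calcrl* cells, and few of them had *Ramp1* or *Ramp3*. A count near 0 would thus be found without any relation between these genes. The 28 cells with *Ramp3* had between 1 read and a natural log value of 2.003, with a median of 15.5 reads, and all 28 had reads of *Prox1*. The 5 cells with *Ramp1* had 2, 110, 2, 2 and 50 reads. In 1 of these, the cell with 50 reads, the value of *Cd74*, a chaperone of antigen presentation known from immune cells, was 5.79, and 2 of 5 immune markers were found. That cell also had a *Prox1* value of 0.866.

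*Calcrl* and *Ramp2*, the pair that makes an adrenomedullin receptor, were found together in 83.1% of cells and in 65.9% of thinned cells. *Adm* was found in addition in 39.3%, and in 19.6% of thinned cells. The pair was found in 85.1% of cells with *Adm* and in 81.5% of cells without, with overlapping intervals (81.2% to 88.5% and 77.6% to 84.9%). In thinned cells the order turned, with 59.8% against 68.8%. *Ednrb* and *Edn1* were found together in 40 cells (4.75%), and *Ednrb* was found in 66.7% of cells with *Edn1* against 73.8% of those without, again with overlapping intervals. At the depth of each cell, 43 cells (5.11%) had neither the *Calcrl* and *Ramp2* pair nor *Ednrb* nor *Htr2b*, and 22.9% had all of them. In thinned cells the order turned, with 13.02% that had none and 11% that had all, so both shares depend on depth.

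*Ednrb* (chromosome 14, 103814625 to 103844402, minus strand) had a median value of 0.631 and reached 3.82. *Htr2b* (chromosome 1, 86099026 to 86111970, minus strand) had a median of 0 and reached 3.21. *Htr2b* was found in 35.01% of cells with *Ednrb* (31.2% to 38.9%) and in 24% of cells without (18.6% to 30.1%). In thinned cells the shares were 23.8% (20.05% to 27.95%) against 16.2% (12.3% to 20.7%), with overlapping intervals. The correlation of their values across all cells, which share 1 pool of mice and differ in depth, was weak (Pearson's r of 0.08). *Htr2b* shares 11.8% of its exon bases with *Psmd1*, a proteasome gene on the opposite strand that was found in 71.02% of cells. In cells with *Psmd1* reads *Htr2b* was found in 34.8% and in cells without in 25.4%, and their values had an r of 0.06. Whether the counting used strand is not stated in the sources used here, so reads of the shared bases cannot be assigned with certainty.

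Between cells with *Gja4* above 1 and the rest, none of the 5 more frequent genes passed a 1.5-fold difference in mean level. The ratio of mean reads per 10000, with 0.1 added to both means, was taken on the log2 scale for the 9654 genes found in at least 10% of cells, of which 2.98% passed 1.5-fold in either direction. Of these, *Adm*, *Calcrl*, *Ramp2*, *Ednrb* and *Htr2b* lay inside the threshold. Their places among all genes compared differed. The ratio of *Adm* was above that of 98.15% of genes and that of *Ramp2* above 89.7%. For *Htr2b*, *Ednrb* and *Calcrl* these shares were 67.7%, 50.8% and 44.01%. The difference lies between classes cut from a range of values: 34 cells had a *Gja4* value from 0.8 to 1 and 38 from 1 to 1.2. The study names valve cells by *Cldn11*, with or without *Gja4*. Here *Cldn11* was above 1 in 21.67% of cells with *Gja4* above 1 and in 16.45% of the rest.

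*Adm* came nearest to the threshold. Its value ran from 0 through a median of 0.00253 to 4.21 in the 240 cells with *Gja4* above 1, and from 0 through 0 to 3.85 in the rest. Both groups covered nearly the same range. The mean level was 2.305 ± 6.16 against 1.55 ± 4.09 reads per 10000, a log2 ratio of 0.54, and *Adm* was found in 50% (interval 43.5% to 56.5%) against 44.7% (40.7% to 48.8%) of cells.

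*Ramp2* was next, with a median value of 1.99 and a highest of 3.76 in cells with *Gja4* above 1, and 1.835 and 3.62 in the rest. Its mean level was 7.96 ± 6.62 against 6.47 ± 6.09 reads per 10000 (log2 ratio 0.29, and 0.07 within wells that carry the reads of 1 sex), and it was found in 97.1% against 93.02% of cells. The ranges of the groups overlapped. *Calcrl* had a median of 0.735 against 0.8325 and a log2 ratio of -0.04. The *Calcrl* and *Ramp2* pair was found in 82.9% of cells with *Gja4* above 1 and in 83.2% of the rest.

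*Ednrb* had a median value of 0.585 against 0.644 and a mean level of 2.49 reads per 10000 in both groups (log2 ratio 0.00). *Htr2b* was found in 31.7% against 32.2% of cells, with a log2 ratio of 0.10. For *Htr2b* this value joins opposite differences, since the log2 ratio was 0.87 among cells deeper than the median and -0.98 among the others. For *Adm* both depths gave a higher level in cells with *Gja4* above 1 (0.67 and 0.33).

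The 3 rare genes are given by their cells. *Ramp1* was found in 4 of 240 cells with *Gja4* above 1 (1.67%, 0.456% to 4.21%) and 1 cell of the rest (0.166%, 0.00421% to 0.922%). *Ramp3* was found in 3 (1.25%, 0.2585% to 3.61%) against 25 (4.15%, 2.705% to 6.07%), and *Edn1* in 22 (9.17%, 5.83% to 13.55%) against 38 (6.31%, 4.505% to 8.56%). The intervals overlap for all 3 genes.

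The classes also differed in other ways. Cells with *Gja4* above 1 had a median of 381732 reads against 347201, and a median summed level of 16 dissociation genes of 188.8 against 226.4 reads per 10000. Wells with *Xist* reads and no reads of Y chromosome genes made up 34.2% against 14.3%, and wells with Y reads only 41.25% against 63.3%. Wells with both made up 9.17% against 4.98%, and whether these held more than 1 cell was not tested. The summed level of the 5 immune markers had a mean of 1.515 against 0.4063 and a highest value of 262.2 against 14.4 reads per 10000, with medians of 0. The highest value is that of a single cell and weighs heavily on the mean. The shares of cells with these markers were close, with *Cd68* in 14.2% against 16.3%, *Lyz2* in 9.17% against 7.475% and *Cd79a* in 2.92% against 2.82%. The part of immune markers in these ratios was not tested. Within the wells with *Xist* reads only and with Y reads only the log2 ratio of *Ramp2* was 0.07 in both, against 0.29 over all cells, that of *Ednrb* was 0.72 and 0.15, that of *Htr2b* -0.30 and 0.82, and that of *Adm* 0.29 and 0.55. The part of sex in the *Gja4* comparison was not tested further.

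**Figure D2:**
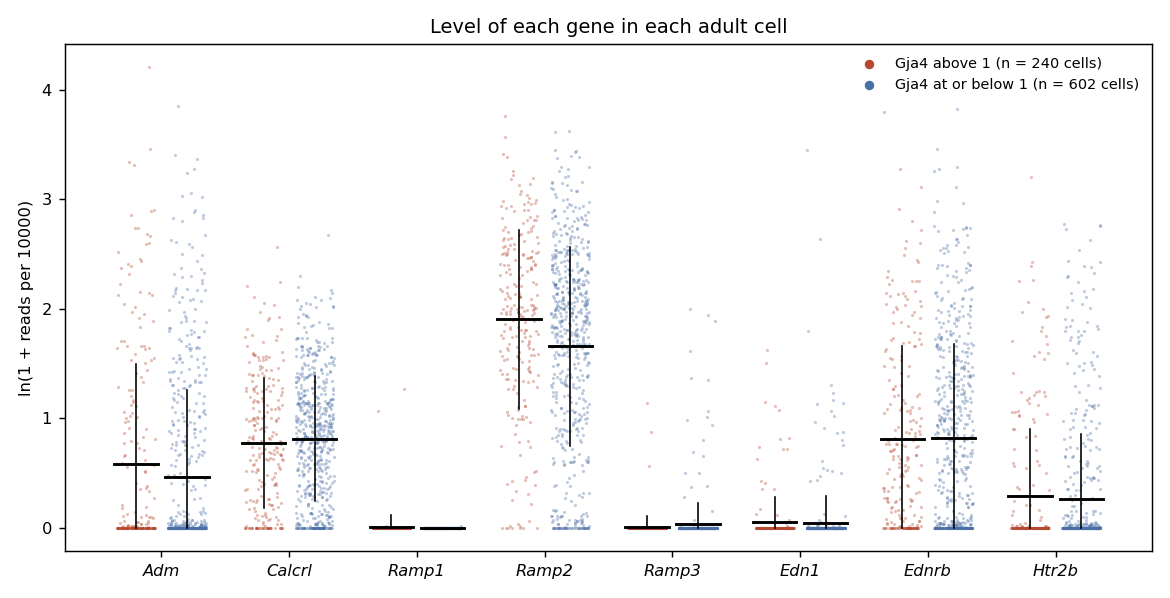
Natural log of 1 plus reads per 10000 of each gene in every adult cell, for cells with *Gja4* above 1 (red, 240 cells) and the rest (blue). Thick lines are means and thin lines 1 SD over cells, drawn down to 0 at most. The groups overlap for every gene, and *Ramp2* has the highest means, 1.905 and 1.66.

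**Figure D3:**
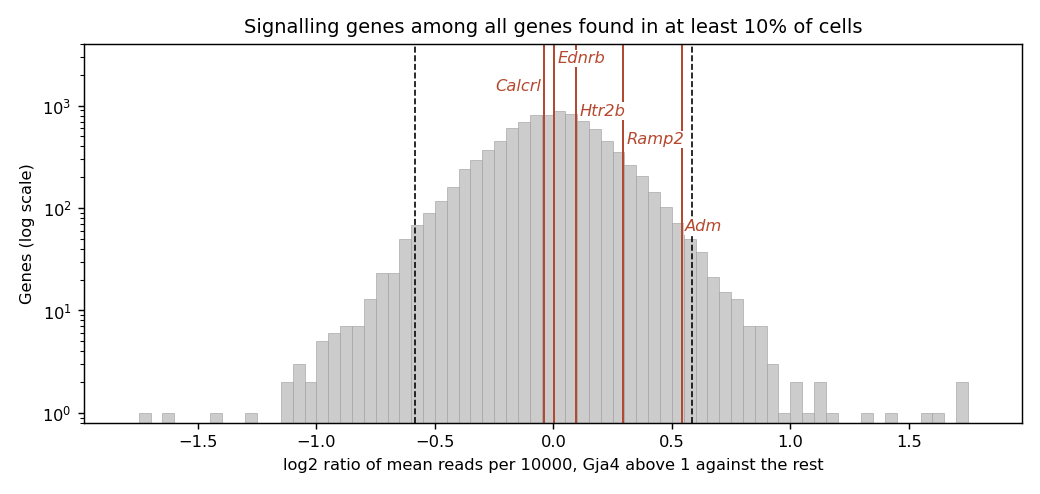
Log2 ratio of mean reads per 10000 between cells with *Gja4* above 1 and the rest, for genes found in at least 10% of cells (grey, number of genes on a log scale, *Gja4* itself left out). Dashed lines mark 1.5-fold. The red lines of the 5 signalling genes lie between -0.04 and 0.54, inside both thresholds.

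Larger differences appeared between classes defined by the other genes with which the study annotates subtypes of LECs. In each case the cells with a value above 1 were compared with the rest. The classes overlap and are ranges of 1 gene, not cell types. *Calcrl* and *Ramp2* passed 1.5-fold in 0 of these 7 comparisons, the *Gja4* comparison included, with log2 ratios of -0.06 to 0.16 and -0.14 to 0.41. Most genes did not pass in a given comparison either, since between 2.98% and 18.3% of all genes compared passed. The share of genes that passed in 0 of the 7 was not computed. *Ednrb*, *Htr2b* and *Adm* passed in several.

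*Stab2*, a scavenger receptor for hyaluronan, marks capillary cells in the study, and 31.2% of cells had it above 1. Of all genes compared, 8.81% passed 1.5-fold there. *Htr2b* was found in 15.6% of these cells (interval 11.4% to 20.55%) against 39.55% of the rest (35.5% to 43.7%), with a highest value of 1.83 against 3.21 and a mean level of 0.127 ± 0.593 against 1.02 ± 2.53 reads per 10000. This log2 ratio of -2.30 was the largest difference of any of the 5 genes in the 7 comparisons. *Ednrb* was lower as well, with a median value of 0.0600 against 0.855, a mean level of 1.22 ± 2.305 against 3.07 ± 4.92 reads per 10000 and a log2 ratio of -1.26. In thinned cells *Htr2b* was found in 6.10% against 27.3% and *Ednrb* in 41.9% against 67.3%, so both differences held at equal depth. *Adm* was found in 53.6% against 42.8% of cells, with a log2 ratio of 0.36 that did not pass.

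*Fndc1* above 1, in 16.9% of cells, marks another capillary subtype. There 6.72% of all genes passed. Reads of *Htr2b* were found in 48.6% (40.1% to 57.1%) against 28.7% (25.4% to 32.2%) of cells and had a log2 ratio of 1.04. *Ednrb* and *Adm* were lower, with log2 ratios of -0.66 and -0.71 and mean levels of 1.645 against 2.66 and 1.12 against 1.90 reads per 10000. The 2 receptors thus differed in the same direction in cells with *Stab2* and in opposite directions in cells with *Fndc1*. With a pseudocount of 1 all 3 ratios fell inside the threshold (0.55, -0.47 and -0.45), as did that of *Adm* without the cells highest in dissociation genes (-0.58). The shares of cells with *Ednrb* (69.7% against 74%) had overlapping intervals. The *Fndc1* cells were deeper, with a median of 460124 against 335356 reads, and in thinned cells *Htr2b* was found in 37.04% against 17.4%.

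*Cldn11*, a tight junction gene of lymphatic valve cells, was above 1 in 17.9% of cells, and 4.45% of all genes passed there. *Ednrb* had a median value of 1.104 against 0.521 and a mean level of 4.04 ± 5.16 against 2.15 ± 4.09 reads per 10000 (log2 ratio 0.88), and it was found in 86.1% (79.5% to 91.2%) against 70.5% (66.9% to 73.9%) of cells. The other 4 genes did not pass there. The log2 ratio of *Ednrb* was thus 0.88 with *Cldn11* and 0.00 with *Gja4*, and the difference between these ratios was not tested. Over the alternatives the *Gja4* ratio ran from -0.19 to 0.43, the upper value being an average over wells by sex signal. *Gja4* above 1 alone is not a valve class of the study, which names valve cells by *Cldn11* with or without *Gja4*.

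Among the *Cldn11* cells, 52 had *Gja4* above 1 and 99 had not. With so few cells 18.3% of all genes passed 1.5-fold between them, against which a pass there has to be read. *Adm* (log2 ratio 0.64) and *Htr2b* (1.09) passed, although their shares of cells were close, 51.9% against 51.5% and 26.9% against 30.3%. Without the 1 cell highest in *Adm* its ratio was 0.35, inside the threshold, as it was under 4 other alternatives (0.15 to 0.50). For *Htr2b* 5 of the 52 cells held 71.4% of its level, and without the highest, at 23.7 reads per 10000, the ratio was 0.63. *Ednrb* did not pass, with a log2 ratio of 0.08 and shares of 88.5% and 84.85%.

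*Foxp2* and *Lyve1*, a transcription factor and a hyaluronan receptor, together marked precollecting cells in the study. Here each was taken alone, with *Lyve1* above 1 in 48.3% of cells, and cells above 1 in both were not compared. In cells with *Foxp2* above 1, where 4.57% of all genes passed, *Adm* had a log2 ratio of 0.61 while it was found in fewer cells (41.6% against 47.2%). Without 1 cell, at 66.2 reads per 10000, this ratio was 0.35, and 3 other alternatives also put it inside the threshold (0.36 to 0.43). In cells with *Lyve1* above 1, where 4.39% passed, *Adm* had a mean level of 1.26 ± 3.79 against 2.24 ± 5.52 reads per 10000 (log2 ratio -0.78, and -0.52 with a pseudocount of 1) and was found in 42.75% against 49.4% of cells. *Edn1* was found in 15 cells with *Lyve1* above 1 (3.69%, 2.08% to 6.01%) and 45 of the others (10.3%, 7.65% to 13.6%), and in thinned cells in 1.6% against 8.17%. Both ligands were thus found in a smaller share of the cells high in *Lyve1*, with intervals that lie apart for *Edn1* and overlap for *Adm* (37.9% to 47.7% and 44.6% to 54.2%).

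**Figure D4:**
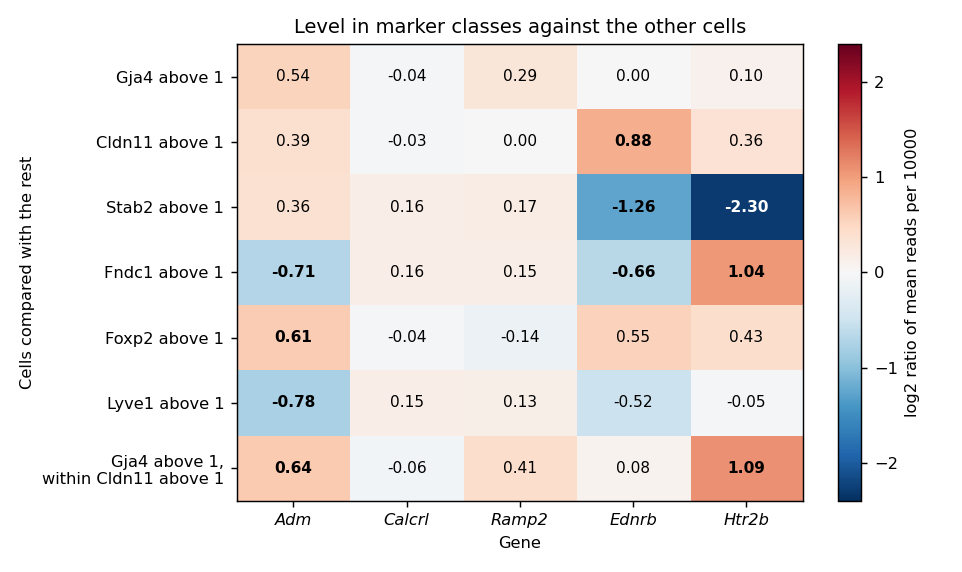
Log2 ratio of mean reads per 10000 between the cells named on the vertical axis and the rest, for the 5 genes found in at least 10% of cells. Bold values are past 1.5-fold. *Calcrl* and *Ramp2* stay inside the threshold in all 7 comparisons, in each of which between 2.98% and 18.3% of all genes compared passed. *Htr2b* with *Stab2* above 1 has the largest difference, -2.30.

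The mean level of *Adm* rose and that of *Ramp2* fell steadily with the level of genes that respond to tissue dissociation. Cells were put in 4 groups of about equal size by the summed level of 16 such genes, among them *Fos* and *Jun*. From the lowest to the highest group *Adm* was found in 38.4%, 43.8%, 47.1% and 55.5% of cells, and its mean level was 1.02, 1.70, 1.77 and 2.57 reads per 10000. The highest group was also the deepest, with a median of 522805 reads against 316970 in the lowest. The mean level of *Ramp2* was 8.45, 7.14, 6.25 and 5.75 reads per 10000, in the opposite order. *Calcrl* stayed between 1.55 and 1.70. *Htr2b* also differed, without a steady order, at 0.919, 0.775, 0.560 and 0.716 reads per 10000. *Ednrb* was found in 67.3%, 71.9%, 77.1% and 76.8% of cells. Genes other than the 8 were not compared in this way. The summed level of dissociation genes also differed between the *Lyve1* classes (median 184.8 against 252.4 reads per 10000), the *Foxp2* classes (253.8 against 208.9) and the *Fndc1* classes (180.8 against 224.1), and the part of dissociation in the *Adm* differences was not tested beyond leaving out the highest group, after which the log2 ratios were -0.51, 0.36 and -0.58. By 4 groups of rising level of 12 hypoxia genes the mean level of *Adm*, itself known as a hypoxia-induced gene, was 1.92, 2.06, 1.83 and 1.26 reads per 10000.

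**Figure D5:**
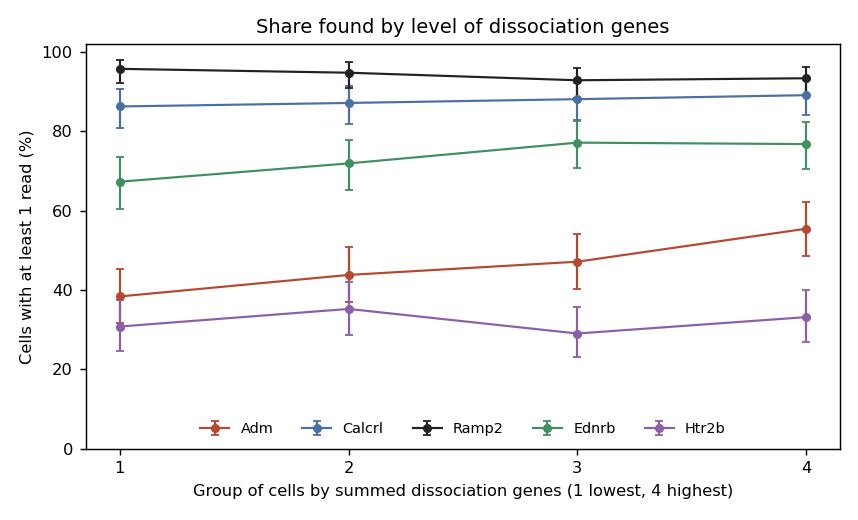
Share of cells (%) with at least 1 read of each gene, in 4 groups of about equal size by the summed level of 16 dissociation genes, with 95% exact intervals. *Adm* goes from 38.4% in the lowest to 55.5% in the highest group, while *Calcrl* stays between 86.3% and 89.1%.

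The genes whose values were most like those of each signalling gene were sought by Pearson's r across all cells, which share depth and pool. Only *Htr2b* and *Ednrb* had genes with an r of at least 0.3. For *Htr2b* these were led by *Igfbp5* (r of 0.43), *Ptn* (0.32) and *Sdc1* (0.31), which encode an insulin-like growth factor binding protein, the growth factor pleiotrophin and the proteoglycan syndecan-1. *Htr2b* was found in 52.1% of cells with *Igfbp5* above 1 (46.4% to 57.7%) and 20% of the others (16.7% to 23.7%). For *Ednrb* they were *Plat* (0.34), which encodes tissue plasminogen activator, *Plpp1* (0.32), a lipid phosphatase, and *Slc41a1* (0.31), a magnesium transporter. *Ednrb* was found in 82.6% of cells with *Plat* above 1 and 69.8% of the others. For *Adm*, *Calcrl*, *Ramp2*, *Ramp3* and *Edn1* the highest r was 0.23, 0.16, 0.25, 0.23 and 0.21. *Ramp1* reached 0.298 with *Cd74*, which rests on 5 cells. Between the 8 genes themselves r lay between -0.14 (*Adm* and *Htr2b*) and 0.12 (*Adm* and *Edn1*).

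Of 53 other genes of these pathways, 37 were in the matrix and the rest were not analysed here, and 23 were found in at least 10% of cells. Between cells with *Gja4* above 1 and the rest, 0 of the 23 rose and 0 fell past 1.5-fold, with log2 ratios from -0.38 to 0.36 and a median of -0.01, beside 2.98% of all genes and a median of 0.00.

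On the adrenomedullin side, the genes with the highest level per kb were *Ackr3*, a scavenging receptor that takes up adrenomedullin and chemokines, *Gpr182*, an atypical chemokine receptor of lymphatic endothelium, and *Crcp*, a protein that couples the CGRP receptor to its signalling. They were found in 66.9%, 71.02% and 33.7% of cells, at 1.39 ± 2.82, 0.4465 ± 0.630 and 0.413 ± 0.962 reads per 10000 per kb. *Ackr3* followed *Htr2b* in direction across both capillary markers, with log2 ratios of -2.04 in cells with *Stab2* above 1 and 1.57 in cells with *Fndc1* above 1, and was singled out after these values were seen.

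For endothelin, *Ece1*, the enzyme that cuts the precursor to the active peptide, was found in 99.9% of cells at 3.8 ± 2.27 reads per 10000 per kb, *Furin* in 51.1% and *Mme* in 2 cells. *Ednra*, the type A receptor, was found in 2 cells with 4 reads in all, and *Edn3* in 0 cells. Both lay far under *Ednrb*, whose reads numbered 135547 over all cells.

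For serotonin, *S100a10*, an adaptor that binds a serotonin receptor, was found in 98.8% of cells and *Maoa* and *Maob*, the enzymes that break serotonin down, in 31.2% and 3.21%. *Htr2a* was found in 12 cells (1.425%), *Htr1b* and *Htr6* in 0 cells, the transporter *Slc6a4* in 3 and *Ddc*, the enzyme of the last step of serotonin synthesis, in 3. *Htr2b* was found in more cells than the other 3 serotonin receptors analysed here. Of the shared signalling genes, *Gnaq*, *Gna11* and *Arrb1*, which encode 2 G protein subunits of the Gq family and an arrestin, were highest per kb and were found in 84.3%, 49.6% and 85.04% of cells.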

How the data were processed

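Smart-seq3 libraries of LECs sorted from 30 pooled adult mice were analysed, 842 cells in all, 240 with *Gja4* above 1 and 602 without. Per the labels and the methods, the authors used STAR for alignment to mm10, featureCounts for counting and Seurat 4.1.0 for normalization, with filters at 2000 genes and 10% mitochondrial reads. Strand and multi-mapping settings are not given in the sources used here. The deposited values are on a natural log scale, with 1 added to reads per 10000. The methods name a log2 step, but exponentials minus 1 summed to 10000 in every cell. Whole reads were recovered from 100% of values (within 0.01 reads). Unlike the labels, column names do not repeat the sample titles, so cells were mapped to the adult group as a whole.

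Computed here were the share of cells with a read, means and SD over cells, log2 ratios of mean reads per 10000 plus 0.1 over genes found in at least 10% of cells (threshold 1.5-fold), and Pearson's r across cells. Shares at equal depth come from 791 cells, each thinned to 20000 reads, without the 51 that had fewer. No doublet caller was run, 0 pairs of cells were identical, and cells carry no replicate, so no p-value was computed. Genes named are the 8 signalling genes, the class markers, pathway genes past 1.5-fold in the *Gja4* comparison with the 3 highest per kb of each pathway, and the 3 genes most like each signalling gene with r of at least 0.3. Pathway genes outside these rules, such as *Ednra*, *Edn3*, *Htr2a*, *Htr1b*, *Htr6*, *Slc6a4* and *Ddc*, and the cell type markers were named after their values were seen. The signalling genes and lists were chosen with earlier results of these data known. Coordinates are from GENCODE M21 (GRCm38), in which 96.1% of symbols were matched, and promoters from RefSeq. The text reports the 4 motifs first searched. A further 3 were tried after the promoter sequences had been read, were dropped for that reason and are not reported. Of the steps, only the log2 ratio and its 1.5-fold call between the *Gja4* classes were run on simulated data. Python 3.11.15, NumPy 2.4.6, pandas 2.3.3, SciPy 1.17.1 and matplotlib 3.10.9 were used.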

Additional observations from a re-analysis of the deposited data

How the results depend on the processing

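The cells are 1 sample, so no value has a replicate error, leaving out replicates was not possible, and depth limits what is found of low genes. No paired analysis was possible because the labels give 1 group of adult cells and the columns carry no replicate number. Of the values that answer a comparison, 12 shares of genes moved under an alternative. In the same set 15 ratios no longer passed 1.5-fold and 1 newly passed. Of the ratios past the threshold with the settings used above, 0 changed sign. Groups of cells by depth and wells by sex signal entered these counts, and the ranges that follow, only as averages. Inside the threshold, ratios with *Gja4* did change sign, from -0.11 to 0.57 for *Htr2b*, -0.18 to 0.07 for *Calcrl*, -0.19 to 0.43 for *Ednrb*, -0.55 to 0.23 for *Edn1* and -0.08 to 0.34 for *Ramp1*, and that of *Ramp2* was 0.07 within wells of 1 sex signal. Taken separately, some of the averaged groups passed. *Htr2b* passed in opposite directions, with 0.87 among cells deeper than the median and -0.98 among the others. It also passed in wells with Y reads only (0.82, against -0.30 with *Xist* reads only). *Ednrb* passed in wells with *Xist* reads only (0.72, against 0.15), and *Adm* among the deeper cells (0.67, against 0.33). With a split at *Gja4* above 2, *Adm* passed (log2 ratio 0.94). *Ramp3*, found in 28 cells, passed with that split (-0.68) and without the cells highest in dissociation genes (-0.73). The share of genes higher with *Gja4* above 1 (1.32%) became 0.0414% with a pseudocount of 1, 2.45% with pooled reads, 2.11% without the cells highest in dissociation genes, 0.632% with a split at *Gja4* above 0, 4.5% with a split above 2 and 2.08% within wells of 1 sex signal. The share of lower genes (1.67%) became 0.166%, 2.89%, 2.83%, 0.891% and 5.83% under the first 5 of these. Of the larger number of genes found in at least 3 cells, 0.979% were higher and 0.932% lower. The alternatives for the other classes, for wells by sex signal and for single cells were chosen after seeing the data. With a pseudocount of 1, 6 ratios no longer passed. These were *Adm* with *Fndc1* (-0.45), *Foxp2* (0.43), *Lyve1* (-0.52) and *Gja4* within *Cldn11* (0.46), and *Ednrb* (-0.47) and *Htr2b* (0.55) with *Fndc1*. Without the cells highest in dissociation genes the 4 *Adm* ratios were -0.58, 0.36, -0.51 and 0.15. Averaged within cells deeper and shallower than the median, *Adm* had 0.38 with *Foxp2* and 0.37 with *Gja4* within *Cldn11*, and without wells holding *Xist* and Y reads the last was 0.50. Without the 1 cell highest in *Adm* these 2 ratios were 0.35 each. The cause of these changes was not tested. The *Ednrb* ratios with *Cldn11* and *Stab2* and the *Htr2b* ratio with *Stab2* passed under every alternative run.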
